A study of Homo sapiens with 6 samples.

Results

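Long noncoding transcripts that carry small RNAs were followed in HaCaT, an established human keratinocyte cell line that became immortal spontaneously, after EIF4E had been targeted with a small interfering RNA. The set was defined by name: symbols of the forms SNHG plus a number and MIR plus a name ending in HG, together with GAS5, ZFAS1, EPB41L4A-AS1 and DANCR. Of 72 matching genes among the 29176 of the table, the 56 with at least 60 counts summed over the 6 libraries were kept, 26 hosts of small nucleolar RNAs (snoRNAs) and 30 hosts of microRNAs. The lowest kept gene had 104 counts and the highest of the 16 others had 35. All 56 passed the filter on low counts and were tested.

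The study set 3 samples with a small interfering RNA against eIF4E plus M5 (si-eIF4E+M5) against 3 samples with a control small interfering RNA plus M5 (si-NC+M5). M5 stimulation is the study's culture model of psoriasis, and the labels do not list its components. Every sample was M5-stimulated and was taken at 48 h, so no unstimulated cells enter any value. The labels do not say that replicates were separate cultures, so p-values reflect only how these samples vary, and that variation may be technical.

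SnoRNAs guide the methylation (C/D box class) or pseudouridylation (H/ACA box class) of ribosomal and spliceosomal RNA, and in human cells most are cut from introns of a host transcript. Several spliced noncoding hosts begin with the cytidine and pyrimidine run of the 5′ terminal oligopyrimidine (5′TOP) class, are engaged by ribosomes and are degraded by nonsense-mediated decay (NMD) in a translation-dependent way. MicroRNA hosts are the precursors from which the Drosha complex cuts microRNA hairpins, so their level and that of the mature microRNA can differ. eIF4E binds the messenger RNA cap when translation begins.

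EIF4E itself had 21.0, 18.4 and 23.5 CPM (counts scaled by library total and between libraries) in the si-eIF4E+M5 libraries, against 50.9, 48.2 and 51.2 CPM in the si-NC+M5 libraries. Its mean was 41.9% of the si-NC+M5 mean, a log2 fold change of -1.25 ± 0.09 (SE, adjusted p = 7.2e-05). Library totals were between 71044961 and 74246501 counts, and the mitochondrial share was between 4.94% and 5.38%. The 9 keratinocyte markers summed to between 3588 and 3818 FPKM (fragments scaled by gene length and library total) in si-eIF4E+M5 libraries and between 3624 and 3680 FPKM in si-NC+M5 libraries. Of these markers KRT5 (log2 fold change 0.54 ± 0.07) and DSG3 (0.26 ± 0.07) were called higher and ITGA6 (-0.61 ± 0.09) and KRT17 (-0.45 ± 0.11) lower. Lists of fibroblast, melanocyte, immune and endothelial markers each summed to at most 1.09 FPKM in every library. The fibroblast sum was between 0.765 and 1.09 FPKM in si-eIF4E+M5 and between 0.335 and 0.475 FPKM in si-NC+M5, and 2 of its 3 tested genes (COL1A1, COL3A1) were called higher, while COL1A2 was at most 0.019 FPKM. The part of these levels in the results was not tested. In bulk samples, fewer cells of a type and less RNA per cell cannot be told apart.

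Several abundant snoRNA hosts were lower after EIF4E knockdown, and the microRNA hosts were mostly not called. A gene was called at an adjusted p under 0.05 over all 18022 tested genes. Of the 56 hosts, 8 were called lower (14.3%), where 8.4% of all tested genes were, and 2 were called higher (3.57%), where 7.44% of all tested genes were. The 8 lower ones were SNHG16, SNHG17, SNHG15, SNHG4, SNHG32, ZFAS1, GAS5 and DANCR, all snoRNA hosts, and the 2 higher ones were MIR210HG and MIR924HG. Among the 26 snoRNA hosts 30.8% were lower and 0 were higher, with a median log2 fold change of -0.25. Among the 30 microRNA hosts 0 were lower and 6.67% higher in the edgeR fit of all 6 libraries by group alone, with a median of -0.08. DESeq2 called 1 microRNA host lower, as did the edgeR fit without si-NC+M5 replicate 3. The edgeR fit with a replicate block, which matches libraries by replicate number, called 3 microRNA hosts lower. The median over all tested genes was -0.01. The difference between the classes was not tested. The 2883 other tested genes with only long noncoding transcripts had 65 higher and 47 lower, with a median of 0.04. The called share of all genes depends on their level. In either direction 2853 of all 18022 tested genes were called. In a fit limited to genes with a mean of at least 1 FPKM, 2980 of 11640 were called. That fit held 34 hosts, of which 8 were called lower and 1 higher.

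The counts depended on single libraries. Without si-NC+M5 replicate 1, 4 hosts were called lower, and without si-eIF4E+M5 replicate 3, 5 were. The higher count was 1 without either of these and 0 without any 1 of the other 4 libraries. SNHG15, SNHG16 and SNHG17 were called in each of the 16 other fits tried.

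**Figure D1:**
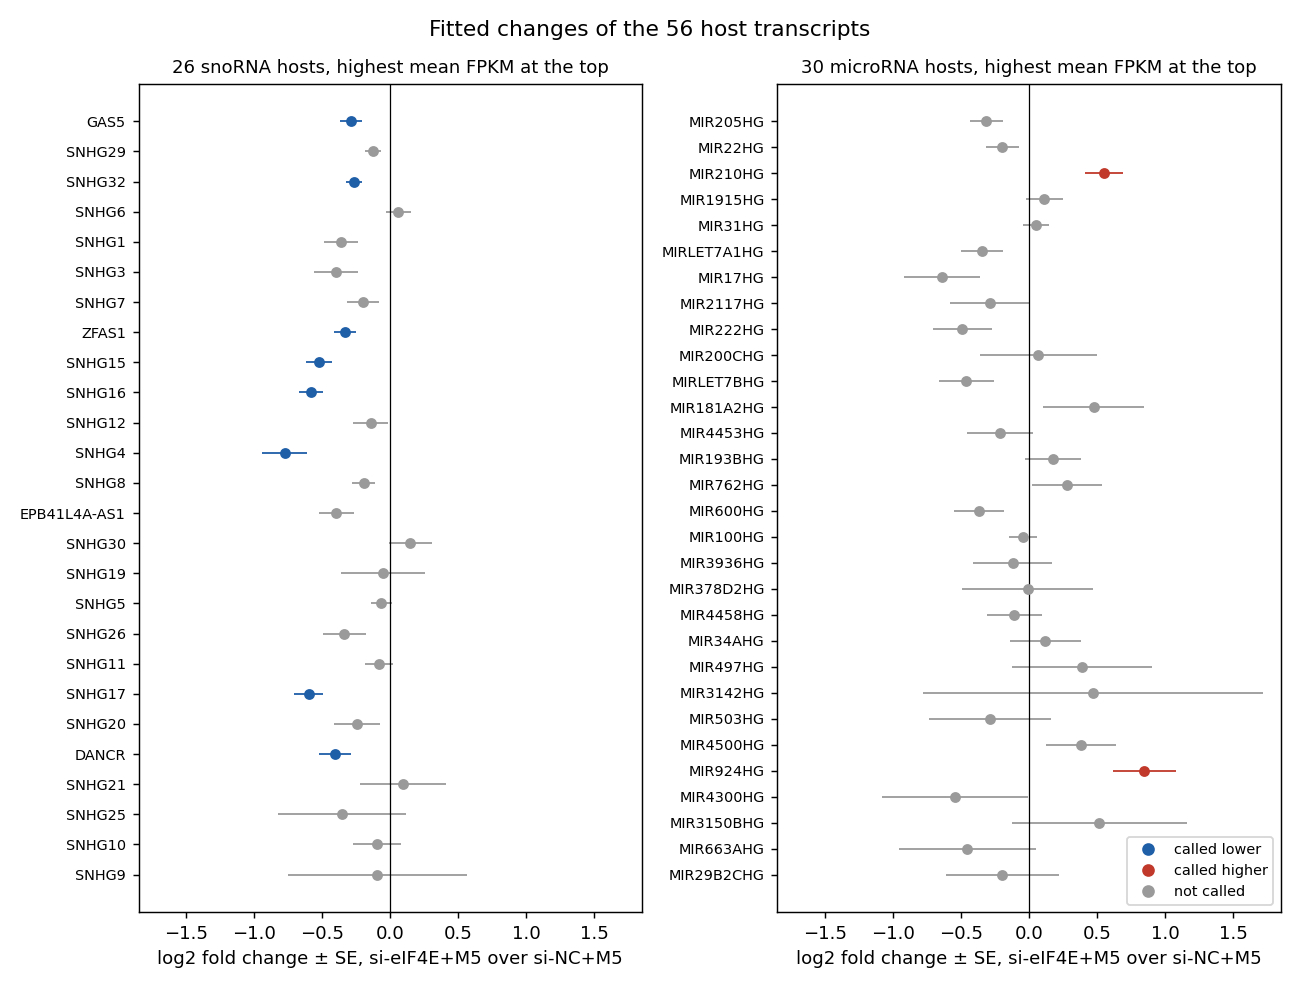
Fitted log2 fold change (si-eIF4E+M5 over si-NC+M5, horizontal axis) with its SE for the 26 snoRNA hosts (left) and the 30 microRNA hosts (right), ordered by mean FPKM from the top. The 8 hosts called lower are all in the left panel, the 2 called higher are in the right panel, and the SE is widest for MIR3142HG.

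Per length, the hosts spanned a wide range of levels. GAS5 averaged 77.2 ± 6.54 FPKM in si-eIF4E+M5 and 92.4 ± 8.67 FPKM in si-NC+M5 (SD, n = 3 each). SNHG29 averaged 78.9 ± 2.06 FPKM in si-eIF4E+M5 and 84.5 ± 5.26 FPKM in si-NC+M5, and MIR205HG averaged 65.5 ± 10.3 FPKM in si-eIF4E+M5 and 79.6 ± 13.1 FPKM in si-NC+M5. These 3 hosts were not apart beyond their SDs in si-NC+M5. SNHG32 followed with 53.6 ± 1.67 FPKM in si-eIF4E+M5 and 63.1 ± 2.27 FPKM in si-NC+M5, and SNHG6 with 43.9 ± 5.07 FPKM in si-eIF4E+M5 and 41.2 ± 3.79 FPKM in si-NC+M5. At the other end, MIR29B2CHG averaged 0.042 ± 0.021 FPKM in si-eIF4E+M5 and 0.046 ± 0.016 FPKM in si-NC+M5.

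When the libraries were compared directly, 12 hosts had every si-eIF4E+M5 library below every si-NC+M5 library, where 17.4% of all tested genes did, and 2 had every one above, where 16.5% did. Of the 12, 10 were snoRNA hosts. Besides 7 of the 8 hosts called lower (GAS5 is the exception), they were SNHG29, SNHG8, EPB41L4A-AS1, MIRLET7BHG and MIR600HG. By level, 3 of the 10 hosts with a mean of at least 10 FPKM were called lower, and 5 of the 24 between 1 and 10 FPKM. None of the 22 below 1 FPKM was called lower in the edgeR fit of all 6 libraries by group alone. The SE of their log2 fold change was between 0.10 and 1.25. The share of all tested genes called at each of these levels was not computed, so no trait of the hosts is read from this split. The hosts together took between 0.186% and 0.217% of all counts in si-eIF4E+M5 libraries and between 0.215% and 0.257% in si-NC+M5 libraries. These ranges overlapped. GAS5, SNHG29 and MIR205HG made up between 58.5% and 61.6% of the hosts' counts in the 6 libraries.

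SNHG16 carries the C/D box snoRNAs SNORD1A, SNORD1B and SNORD1C in its introns. It had 24.7, 24.0 and 22.3 CPM in si-eIF4E+M5 and 38.9, 35.7 and 31.7 CPM in si-NC+M5. No library of one group reached the range of the other. The log2 fold change was -0.58 ± 0.09 (SE, adjusted p = 0.0022), the lowest adjusted p among the hosts. The gene (ENSG00000163597) lies on the plus strand of chr17:76557764-76565348 (GRCh38).

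SNHG17, host of the 4 H/ACA box snoRNAs SNORA71A to SNORA71D, lies on the minus strand of chr20:38419638-38435381 (ENSG00000196756). It had 20.4, 18.3 and 16.5 CPM in si-eIF4E+M5, against 31.2, 27.5 and 24.9 CPM in si-NC+M5, again without overlap. The mean in si-eIF4E+M5 was 65.9% of that in si-NC+M5 (log2 fold change -0.60 ± 0.11, adjusted p = 0.0051). SNHG15, host of the H/ACA box snoRNA SNORA9, had 29.6, 32.0 and 26.8 CPM in si-eIF4E+M5 and 47.1, 41.8 and 38.1 CPM in si-NC+M5. All 3 of its si-eIF4E+M5 libraries were below the lowest si-NC+M5 library, with a log2 fold change of -0.52 ± 0.09 (adjusted p = 0.0051). It lies on the minus strand of chr7:44983023-44986834 (ENSG00000232956). Neither SNHG17 nor SNHG15 has exons that overlap those of another annotated gene.

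SNHG4 carries H/ACA box snoRNAs on the plus strand of chr5:139274102-139283244 (ENSG00000281398). Its values were 18.6, 14.1 and 11.5 CPM in si-eIF4E+M5, against 28.2, 26.0 and 21.5 CPM in si-NC+M5. It had the most negative fitted change of the 56 hosts, -0.78 ± 0.17 (adjusted p = 0.012). Its exons overlap a MATR3 gene model on the same strand (ENSG00000280987), so the split of reads between them is uncertain. That MATR3 model averaged 47.9 ± 5.39 CPM in si-eIF4E+M5 and 90.5 ± 77.0 CPM in si-NC+M5 (SD, n = 3 each) and was not called (adjusted p = 0.28). SNHG4 was not called without si-eIF4E+M5 replicate 2 or with no filter on low counts (adjusted p up to 0.065).

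SNHG32, earlier named C6orf48, holds SNORD48 and SNORD52 and was among the most abundant hosts per length. It had 97.7, 104.6 and 98.0 CPM in si-eIF4E+M5 and 123.6, 120.3 and 116.9 CPM in si-NC+M5. The change was small beside that of SNHG16 but the libraries within each group lay close together (log2 fold change -0.26 ± 0.06, adjusted p = 0.012). Without si-NC+M5 replicate 1 the adjusted p was 0.052. It lies on the plus strand of chr6:31834608-31839764 (ENSG00000204387). Its exons overlap those of AL671762.1 on the same strand, so the split of reads between them is uncertain.

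ZFAS1, antisense to the start of ZNFX1, holds SNORD12, SNORD12B and SNORD12C on the plus strand of chr20:49278178-49295738 (ENSG00000177410). It had 77.1, 87.1 and 76.1 CPM in si-eIF4E+M5, against 105.4, 106.9 and 90.7 CPM in si-NC+M5, without overlap (log2 fold change -0.33 ± 0.08, adjusted p = 0.019). ZNFX1 on the opposite strand had a log2 fold change of -0.08 ± 0.08 and was not called (adjusted p = 0.59). The call on ZFAS1 was lost in 7 of the 16 other fits, with an adjusted p of up to 0.088. Of the libraries, si-eIF4E+M5 replicates 1 and 3 and si-NC+M5 replicates 1 and 2 each ended it when left out.

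GAS5, named for its accumulation in growth-arrested cells and the classical example of a 5′TOP host degraded by NMD, was the host with the highest mean FPKM. RefSeq places 11 snoRNAs within it. It had 379, 426 and 358 CPM in si-eIF4E+M5 and 505, 489 and 426 CPM in si-NC+M5. The highest si-eIF4E+M5 library and the lowest si-NC+M5 library were at the same level, so the groups overlapped slightly. The log2 fold change was -0.29 ± 0.08 (adjusted p = 0.041), and the call was lost in 9 of the 16 other fits (adjusted p up to 0.14). It was lost without si-eIF4E+M5 replicate 1 or 3 and without si-NC+M5 replicate 1 or 2. GAS5 lies on the minus strand of chr1:173858559-173868882 (ENSG00000234741).

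DANCR, known in human epidermis as a transcript that keeps progenitor cells undifferentiated, holds SNORA26 on the plus strand of chr4:52712325-52723623 (ENSG00000226950). It had 11.1, 12.6 and 9.78 CPM in si-eIF4E+M5, against 15.8, 13.9 and 14.8 CPM in si-NC+M5. The groups did not overlap, and the log2 fold change was -0.41 ± 0.12 (adjusted p = 0.042). The call was lost in 10 of the 16 other fits (adjusted p up to 0.15), among them the fits without any 1 library other than si-eIF4E+M5 replicate 2.

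**Figure D2:**
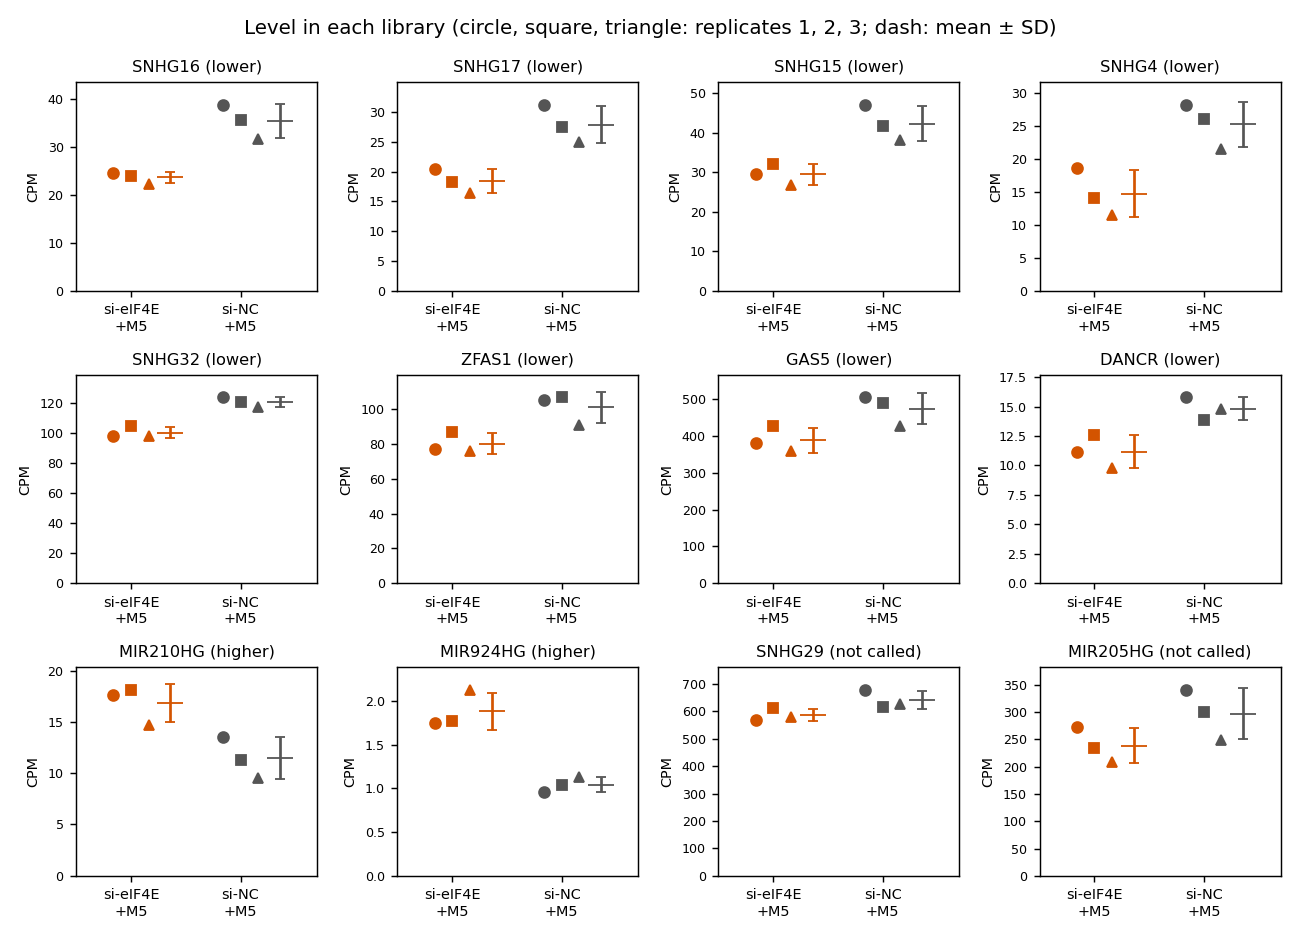
Level in CPM (vertical axis, from 0) in each library of the 10 called hosts and of SNHG29 and MIR205HG, with si-eIF4E+M5 on the left of each panel, points by replicate number and the mean ± SD of 3 libraries beside them. SNHG16, SNHG17, SNHG15 and SNHG4 show a clear gap between the groups, the GAS5 groups touch near 426 CPM, and MIR210HG and MIR924HG run the other way.

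The snoRNAs inside the hosts called lower fall into both guide classes. Examples are shown, from GENCODE v29 (GRCh38), to make the cargo visible. In the C/D box RNAs of SNHG16, SNHG32 and ZFAS1, capitals mark TGATG within the first 25 bases and CTGA within the last 25, letters of boxes C and D. Both occur on the transcribed strand in 79.2% of the 288 transcripts named SNORD in that annotation.
SNORD1A: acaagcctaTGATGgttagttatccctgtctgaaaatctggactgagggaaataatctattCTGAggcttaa
SNORD48: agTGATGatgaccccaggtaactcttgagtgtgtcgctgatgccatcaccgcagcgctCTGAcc
SNORD12: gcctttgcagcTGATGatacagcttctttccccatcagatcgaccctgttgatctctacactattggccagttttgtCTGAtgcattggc

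In the H/ACA box RNAs of SNHG17, SNHG15 and DANCR, capitals mark ACA within the last 8 bases, found in 89.9% of the 149 transcripts named SNORA. The 11 snoRNAs of GAS5 are named only.
SNORA71A: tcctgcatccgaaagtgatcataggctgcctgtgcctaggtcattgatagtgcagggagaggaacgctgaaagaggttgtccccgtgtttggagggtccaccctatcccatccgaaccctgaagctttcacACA
SNORA9: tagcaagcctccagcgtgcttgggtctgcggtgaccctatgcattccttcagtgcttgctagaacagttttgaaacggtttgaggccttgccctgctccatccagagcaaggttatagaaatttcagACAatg
SNORA26: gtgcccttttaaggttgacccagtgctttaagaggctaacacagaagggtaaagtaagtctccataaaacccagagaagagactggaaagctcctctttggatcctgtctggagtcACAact

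Split by cargo, 4 of the 13 hosts with a C/D box snoRNA were called lower (30.8%, median log2 fold change -0.26). Of the 13 with an H/ACA box snoRNA 5 were (38.5%, median -0.36), where 8.4% of all tested genes were. That last share was not matched to the hosts for level. Hosts that hold both classes count in each. None of either class was called higher by edgeR or under any other setting tried. The fitted changes of the H/ACA hosts were all below 0, between -0.78 and -0.08.

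The 5′TOP letters were looked for at the annotated starts of the hosts. A start was counted where a transcript of GENCODE v29 begins with C followed by at least 4 pyrimidines (C or T) on its own strand. At least 1 such transcript was found for 14 of 26 snoRNA hosts (53.9%), 5 of 30 microRNA hosts (16.7%) and 14.4% of the 17774 tested genes in that annotation. A gene with more transcripts has more chances: by transcript the shares were 14.7% in snoRNA hosts, 4.32% in microRNA hosts and 2.61% over those tested genes. Within the snoRNA hosts, 4 of the 8 called lower and 10 of the 18 not called had such a start. The difference between these shares was not tested. In the first 25 bases of the transcripts with the longest run, shown for hosts called lower and for SNHG29 and SNHG12, which were not called, capitals mark the run.
GAS5 start: CTTTTCgaggtaggagtcgactcct
SNHG16 start: CTTTTCgaggtcggccgcgtggctg
SNHG4 start: CCTTTCCCCTCCggcctctgccggt
ZFAS1 start: CCTTCCCaggtattggcaacaccag
SNHG29 start: CTCCTTTTgtgaggattgggatatt
SNHG12 start: CCTTTCTCCCCgccgcattcccggt
SNHG17 start: ctcgaaatctgcagacatcttgatt
SNHG15 start: ccgccatcctgggccccacgtgttg

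GAS5 and SNHG16 open with the same letters through the run and differ in the size of their fitted change, -0.29 and -0.58. SNHG17 and SNHG15, both called in every fit tried, have no annotated transcript with such a start.

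Among the abundant snoRNA hosts that were not called, SNHG29 (earlier LRRC75A-AS1; host of SNORD49A, SNORD49B and SNORD65) was nearly at the level of GAS5 per length. It had 568, 613 and 580.2 CPM in si-eIF4E+M5, against 679, 617 and 628 CPM in si-NC+M5. The groups did not overlap, but the nearest libraries were almost equal (log2 fold change -0.13 ± 0.06, adjusted p = 0.18). SNHG6, host of SNORD87, had 59.6, 60.8 and 49.8 CPM in si-eIF4E+M5 and 58.8, 49.9 and 54.5 CPM in si-NC+M5, with a log2 fold change of 0.06 ± 0.09 (adjusted p = 0.73). Its groups overlapped.

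SNHG1, host of 8 C/D box snoRNAs from SNORD22 to SNORD31, had 80.7, 67.5 and 57.4 CPM in si-eIF4E+M5, against 100.4, 86.4 and 76.8 CPM in si-NC+M5. Replicate 1 was the highest in both groups and the groups overlapped (log2 fold change -0.36 ± 0.13, adjusted p = 0.085). SNHG1 was called lower in 3 of the 16 other fits. They were the replicate block (adjusted p = 0.0026), DESeq2 (0.015) and the fit without si-eIF4E+M5 replicate 1 (0.033). SNHG3, host of the SNORA73 RNAs, had 54.7, 44.8 and 34.4 CPM in si-eIF4E+M5 and 69.4, 57.5 and 49.1 CPM in si-NC+M5 (-0.40 ± 0.16, adjusted p = 0.14). Its pattern over replicates was like that of SNHG1, with replicate 1 highest and replicate 3 lowest in each group. The exons of SNHG3 overlap those of RCC1 on the same strand, so the split of reads between them is uncertain. RCC1, a protein-coding gene, was itself called lower (log2 fold change -0.25 ± 0.06). SNHG7, host of SNORA17A and SNORA17B, had 64.0, 47.3 and 44.4 CPM in si-eIF4E+M5 and 60.2, 61.9 and 56.9 CPM in si-NC+M5 (-0.20 ± 0.12, adjusted p = 0.32). SNHG12 had 22.8, 17.3 and 18.3 CPM in si-eIF4E+M5 and 24.8, 19.8 and 19.9 CPM in si-NC+M5 (-0.14 ± 0.13, adjusted p = 0.52). SNHG3 and SNHG7 were each called lower in 1 of the 16 other fits. For SNHG3 it was the replicate block (adjusted p = 0.0034), and for SNHG7 the fit without si-eIF4E+M5 replicate 1 (adjusted p = 0.016). In SNHG7 and SNHG12 a si-eIF4E+M5 library stood above at least 1 si-NC+M5 library.

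EPB41L4A-AS1, host of SNORA13, had 13.5, 13.1 and 12.2 CPM in si-eIF4E+M5 and 20.3, 14.4 and 16.4 CPM in si-NC+M5. The groups did not overlap, the si-NC+M5 libraries were spread widely, and the change of -0.40 ± 0.13 missed the threshold (adjusted p = 0.067). It was called in 4 of the 16 other fits. The remaining snoRNA hosts had fitted changes between -0.36 (SNHG25) and 0.15 (SNHG30). None of them was called in the edgeR fit of all 6 libraries by group alone. The fit with a replicate block called 12 snoRNA hosts lower, not all of them among the hosts given by library.

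MIR210HG, host of the hypoxia-responsive miR-210, was the more abundant of the pair of hosts called higher. It had 17.6, 18.1 and 14.7 CPM in si-eIF4E+M5, against 13.5, 11.3 and 9.52 CPM in si-NC+M5. Every si-eIF4E+M5 library was above every si-NC+M5 library, and the mean was 147% of the si-NC+M5 mean (log2 fold change 0.55 ± 0.14, adjusted p = 0.025). The call was lost in 5 of 16 other fits (adjusted p up to 0.096): with no filter on low counts, without si-eIF4E+M5 replicate 1 or 2, and without si-NC+M5 replicate 2 or 3. The gene lies on the minus strand of chr11:565660-568457 (ENSG00000247095), and RASSF7 and LMNTD2 within 5 kb were not called (log2 fold change -0.14 and 0.08).

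MIR924HG, on the minus strand of chr18:39206917-39800321 (ENSG00000267374), holds miR-924 and the pair of miR-5583 genes. It had 1.75, 1.77 and 2.13 CPM in si-eIF4E+M5 and 0.956, 1.04 and 1.13 CPM in si-NC+M5. The groups were clearly apart at a very low level, 0.152 ± 0.016 FPKM in si-eIF4E+M5 and 0.081 ± 0.007 FPKM in si-NC+M5 (SD, n = 3 each). The log2 fold change was 0.85 ± 0.23 (adjusted p = 0.033). The call was lost in 9 of 15 other fits (adjusted p up to 0.11), among them each fit that left out 1 library. On the log2(FPKM + 1) scale, which understates changes of low genes, the difference was 0.09.

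MicroRNAs of the hosts named here are shown from RefSeq (GRCh38.p14), with the seed, bases 2 to 8, in capitals. The first lines are from the hosts called higher and the rest from hosts that were not called and are known in skin or the cell cycle.
miR-210-3p: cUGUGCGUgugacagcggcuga
miR-210-5p: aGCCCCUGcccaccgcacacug
miR-924: aGAGUCUUgugaugucuugc
miR-205-5p: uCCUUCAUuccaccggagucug
miR-22-3p: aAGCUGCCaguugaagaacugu
miR-31-5p: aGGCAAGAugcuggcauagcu
miR-17-5p: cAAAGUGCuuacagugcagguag
miR-20a-5p: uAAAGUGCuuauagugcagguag
miR-221-3p: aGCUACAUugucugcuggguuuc
miR-222-3p: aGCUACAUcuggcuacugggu
let-7a-5p: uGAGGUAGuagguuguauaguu
let-7b-5p: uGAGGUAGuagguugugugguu

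MIR205HG, precursor of the epithelial miR-205, was the most abundant microRNA host. It had 273, 235 and 208 CPM in si-eIF4E+M5, against 341, 301 and 248 CPM in si-NC+M5. Both groups spanned a wide range and overlapped (log2 fold change -0.31 ± 0.12, adjusted p = 0.12). It was called lower in 3 of the 16 other fits, among them the one with the replicate block (adjusted p = 0.0034). MIR22HG had 45.9, 43.4 and 35.3 CPM in si-eIF4E+M5 and 54.7, 47.9 and 39.9 CPM in si-NC+M5 (-0.19 ± 0.12, adjusted p = 0.35). MIR31HG, host of miR-31, a microRNA raised in psoriatic skin, averaged 11.1 ± 0.365 CPM in si-eIF4E+M5 and 10.7 ± 0.195 CPM in si-NC+M5 (SD, n = 3 each). Its log2 fold change of 0.05 ± 0.10 was within its SE.

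MIR17HG, a MYC target that carries the cluster of miR-17, miR-18a, miR-19a, miR-20a, miR-19b and miR-92a, averaged 6.26 ± 2.19 CPM in si-eIF4E+M5 and 9.74 ± 3.40 CPM in si-NC+M5 (SD, n = 3 each). The fitted change was as large as that of SNHG17 but its replicates differed more (-0.64 ± 0.28, adjusted p = 0.17). MIR222HG, source of miR-221 and miR-222, which share the seed GCUACAU, had a change of -0.49 ± 0.22 (adjusted p = 0.17).

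The seed GAGGUAG of the let-7 family recurred in 5 hosts, the widest sharing among 66 seeds of 80 mature microRNAs from 28 hosts. These hosts were MIRLET7BHG (log2 fold change -0.46), MIRLET7A1HG (-0.35), MIR4458HG (-0.11), MIR100HG (-0.04) and MIR4500HG (0.39). None of them was called in the edgeR fit of all 6 libraries by group alone. MIR3142HG, host of miR-146a, a microRNA that restrains inflammatory signalling, was at 0 counts in 1 library of each group and had an SE of 1.25. The remaining microRNA hosts had fitted changes between -0.54 (MIR4300HG) and 0.52 (MIR3150BHG) and were not called.

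Genes of the pathways around the hosts were read in the same fit. Of all tested genes, 8.4% were lower and 7.44% higher, and the lists were not matched to them for level. Of 39 tested protein-coding genes that host snoRNAs, 7 were lower and 0 higher (17.9% lower, median log2 fold change -0.06). NOP56 (-0.52 ± 0.08) and DKC1 (-0.47 ± 0.07) were furthest from 0 among the genes called, followed by TAF1D (-0.29 ± 0.08). Most of the list encodes ribosomal proteins, and none of the ribosomal protein genes was called. Of the 39, 24 (61.5%) have an annotated transcript start with the run described above. NOP56 and DKC1 are also core proteins of the snoRNA particles. In the list of 20 snoRNA-particle proteins, 5 were lower and 0 higher (median -0.16), the next after this pair being RUVBL1, an assembly factor (-0.33 ± 0.06).

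In the NMD machinery, 3 of 21 genes were lower (14.3%, where 8.4% of all tested genes were) and 0 higher (median -0.16). They were GSPT1, the release factor eRF3a (-0.62 ± 0.06), UPF3B, an exon junction adaptor (-0.38 ± 0.07), and PNRC2, a decapping adaptor (-0.20 ± 0.06). Of 20 protein-coding genes known as NMD targets, 8 were lower (40.0%) and 0 higher (median -0.23). GADD45A (-1.23 ± 0.09), DDIT3 (-0.91 ± 0.15) and UPP1 (-0.82 ± 0.12) were the furthest. GADD45A and DDIT3 are stress-response genes, and UPF3B is in both lists.

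In the list for the RNA exosome and 5′ decay, 5 of 24 genes were lower (20.8%, where 8.4% of all tested genes were) and 0 higher (median -0.07). Among those called, the furthest from 0 were DCP1A, a decapping factor (-0.46 ± 0.11), ZCCHC8, of the nuclear exosome targeting complex (-0.44 ± 0.07), and EXOSC4, an exosome core subunit (-0.35 ± 0.07). In microRNA processing, 2 of 14 were lower (14.3%) and 0 higher. The 2 were XPO5, the exporter of microRNA precursors (-0.26 ± 0.07), and TARBP2, a partner of Dicer (-0.22 ± 0.06). Of 17 other well-known long noncoding RNAs, LINC00511 was higher (0.47 ± 0.12) and PVT1 was lower (-0.35 ± 0.06).

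**Figure D3:**
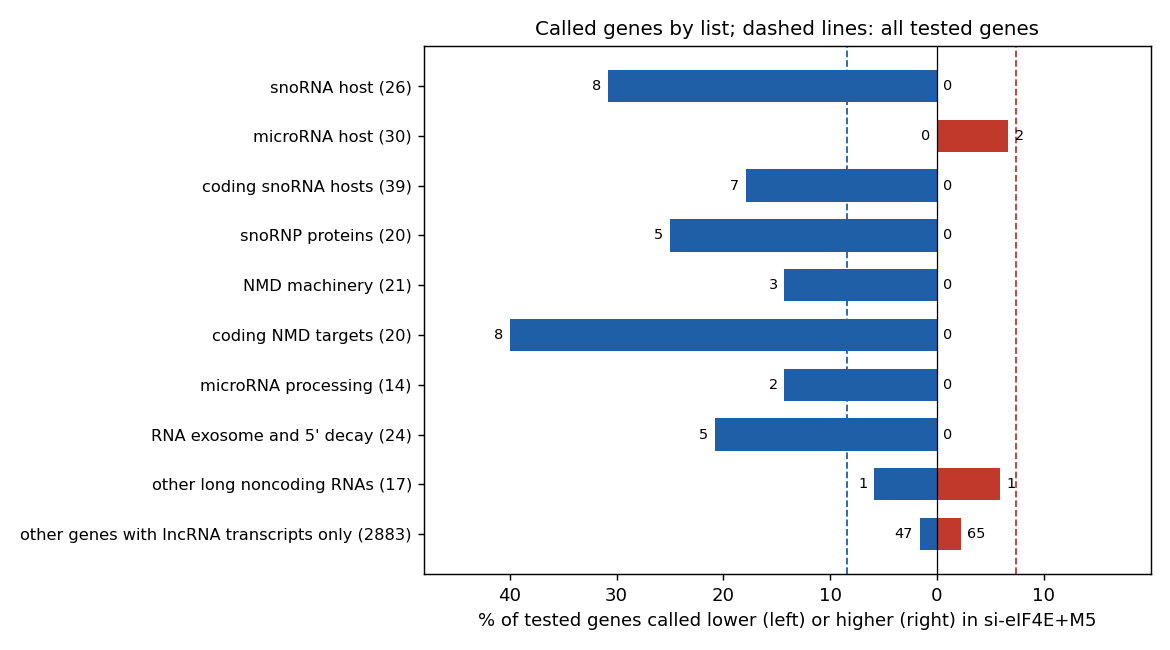
Share of the tested genes of each class or list called lower (left of 0) or higher (right of 0) in si-eIF4E+M5, with the number of genes at the end of each bar and of tested genes in brackets. Dashed lines mark all tested genes at 8.4% lower and 7.44% higher, and snoRNA hosts reach 30.8% lower and coding NMD targets 40.0%.

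Counting limits bear on the hosts by position. In GENCODE v29, 28 of the 56 hosts have exons that overlap another gene, for some on the same strand, as with SNHG3, SNHG4 and SNHG32. Whether counting used strand is not given in the sources used here, so reads of hosts and overlapping genes cannot be told apart. Among the 28 without such overlap, 2 were called lower (SNHG15 and SNHG17) and 1 higher (MIR210HG). Of annotated genes that overlap or lie within 5 kb of a called host, ST6GALNAC2, which lies 29 bases from SNHG16 on the other strand, was called (log2 fold change 0.30 ± 0.08, adjusted p = 0.026). ZBTB37 at GAS5, HSPA1B near SNHG32, PRCD and 3 AC015802 genes at SNHG16, 2 AL391095 genes near SNHG17 and RPL7AP66 within MIR924HG were not called, with changes between -0.68 and 0.56.

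**Figure D4:**
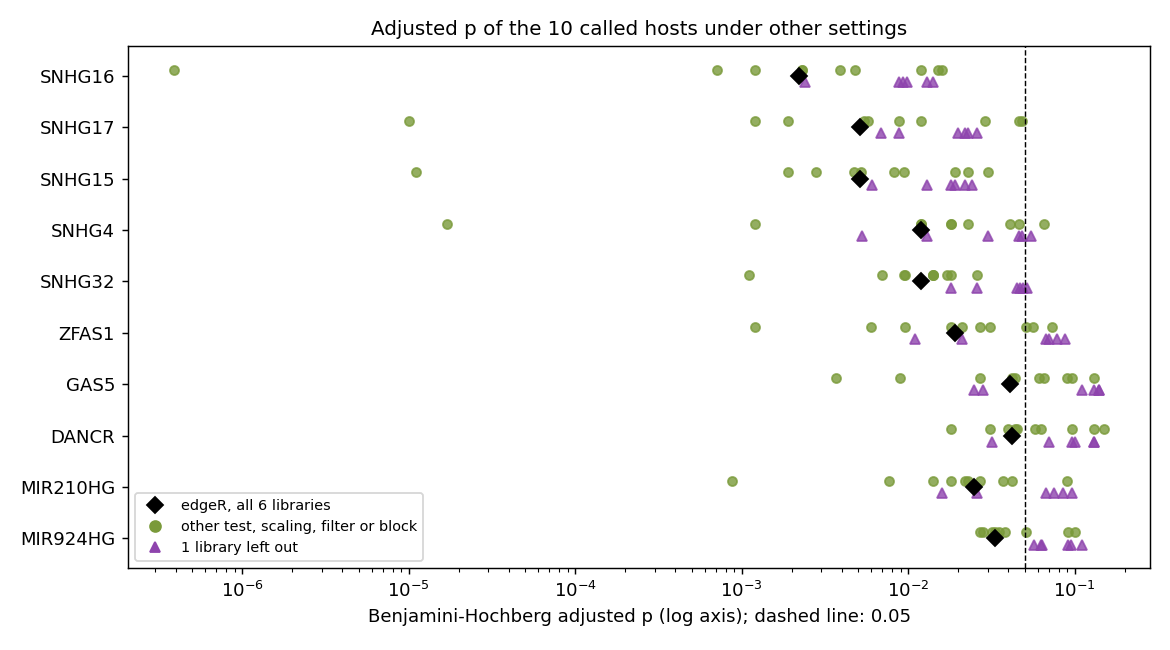
Adjusted p (horizontal log axis, threshold 0.05 dashed) of the 10 called hosts with all 6 libraries (diamonds), under other tests, scalings, filters or the replicate block (circles), and with 1 library left out (triangles). SNHG16, SNHG17 and SNHG15 stay left of the threshold throughout, while DANCR, GAS5 and MIR924HG cross it in many fits.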

How the data were processed

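Total RNA of 6 HaCaT samples was sequenced. The authors deposited whole-number counts per gene and FPKM values in 1 table. Per the submitters' processing notes cutadapt 1.9, FastQC and GRCh38 were used. Aligner, counter, annotation and strand setting: not given in the sources used here. Gene positions and exon overlaps are from GENCODE v29.

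The count test was edgeR 4.0.16 under R 4.3.3 (low-count filter filterByExpr, minimum 10 counts; TMM; quasi-likelihood test, two-sided; Benjamini-Hochberg over 18022 genes). Adjusted p-values in the text are from this fit unless another is named. CPM are TMM-scaled. The common biological coefficient of variation was 17.4%. Alternatives used limma 3.58.1, DESeq2 1.42.0, other scalings and filters, a replicate block and each library left out. Figures used matplotlib 3.10.9.

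The members and lists were chosen with earlier results of these data known. By rule the text gives per-library values for GAS5, ZFAS1, EPB41L4A-AS1, DANCR, every called host and the 8 uncalled hosts with the highest mean FPKM, and up to 3 called genes per direction in each list. MIR17HG, MIR31HG and other hosts given by mean or fold change were picked after their values were seen. A neighbouring gene and a snoRNA sequence are not reported here.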

Additional observations from a re-analysis of the deposited data

How the results depend on the processing

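None of the 19 hosts given by library reversed its direction in the fits tried. Over all genes 2853 were called, 1818 with no filter on low counts and between 1598 (without si-NC+M5 replicate 2) and 2283 with 1 library left out. With 1 library left out, between 4 and 8 hosts were lower and between 0 and 1 higher, with medians between -0.27 and -0.09. With no filter on low counts, 4 hosts were lower and 0 higher. With a mean FPKM of at least 1, which leaves 34 hosts, 8 were lower and 1 higher, and 2980 of 11640 genes were called. With limma on log2(FPKM + 1), 5 were lower and 1 higher (median -0.053), and with log2(FPKM + 0.1) also 5 and 1. Without hosts with exon overlap, 2 were lower and 1 higher. A count of 0 allows up to 3 counts, between 0.0404 and 0.0422 CPM (counting error only). The cause of these differences was not tested, apart from the fewer genes or samples by construction.

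Whether the replicate numbers pair the samples could not be settled. Deviations of same-numbered libraries correlated weakly, at 0.030, 0.032 and 0.044 over 18022 genes, each sample correlating best with its own number. Those of differently numbered libraries correlated between -0.030 and -0.002. Deviations were taken from each group's mean, so positive values for same numbers make the others negative on balance. With the replicate block, 15 hosts were lower and 2 higher, and 3414 genes were called. Of the 15, 12 were snoRNA hosts and 3 microRNA hosts, and SNHG1 (adjusted p = 0.0026), SNHG3 (0.0034) and MIR205HG (0.0034) were among them. Host levels deviated in the same direction for replicates 1 and 3. The median was 0.10 (log2) in si-eIF4E+M5 and 0.15 in si-NC+M5 for replicate 1. For replicate 3 it was -0.13 in si-eIF4E+M5 and -0.10 in si-NC+M5. For replicate 2 the signs differed, 0.03 in si-eIF4E+M5 and -0.03 in si-NC+M5.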

Other observations

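The table also has rows for 88 small RNA genes inside the hosts, 49 snoRNAs and 39 microRNA hairpins. Of these rows 37 hold exactly 1 count in each of the 6 libraries, a value read here as no measure of level. Summed counts had a median of 6 over the 6 libraries, which such rows set, and 1020 was the highest sum (MIR205). Of them 7 were tested and 0 called by edgeR (SNORA73B alone had an unadjusted p under 0.05, at 0.037). SNORA73B in SNHG3 had 60, 53 and 21 counts in si-eIF4E+M5, against 109, 102 and 55 in si-NC+M5 (log2 fold change -1.05 ± 0.43, adjusted p = 0.14). MIR210 had 18, 21 and 12 counts in si-eIF4E+M5 and 31, 29 and 16 in si-NC+M5 (-0.63 ± 0.53, adjusted p = 0.49), while its host MIR210HG was called higher. MIR205 had 183, 150 and 125 counts in si-eIF4E+M5 and 226, 186 and 150 in si-NC+M5 (-0.35 ± 0.23, adjusted p = 0.38), beside -0.31 ± 0.12 for MIR205HG.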
